A study of Mus musculus with 169 samples.

Results

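The genes described here are 35 lysosomal genes of sorted mouse microglia: glycosidases, sulfatases with the acetyltransferase Hgsnat, enzymes and carriers of lipids, the peptidase Tpp1, and proteins of the lysosomal membrane. They were chosen by name from a list of lysosomal genes and found on the arrays through the accession of each probe, taking the probe with the highest mean signal of each gene. A probe was tested for 34 of the 35, out of 31921 features tested in all, 17793 of them with a gene symbol. No probe was matched by accession to Cd68, a heavily glycosylated macrophage membrane protein, and it is not analysed here.

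The microglia came from Grn+/+ (WT) and Grn-/- (KO) mice on a C57B/6J background at 4 and 16 months of age. Cells were enriched on Percoll gradients and sorted with antibodies to CD11b, CD45 and Ly6G, a strategy that also labels other myeloid cells. Single-color Agilent arrays were run for 4 WT and 3 KO samples at 4 months and for 4 WT and 4 KO samples at 16 months. The 16-month WT arrays 1 and 2 differed by less than repeat spots of 1 array, as did arrays 3 and 4, so each of these pairs was counted as 1 sample and the WT group at 16 months has n = 2. The labels do not say whether samples came from separate animals, so the p-values measure only the spread between these samples.

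Grn encodes progranulin, a secreted glycoprotein that is delivered to lysosomes. Lysosomal hydrolases take glycans, glycosaminoglycans, glycolipids, phospholipids and proteins apart in sequence at acid pH, and the loss of many single enzymes causes a storage disease. The products leave through membrane transporters, and many of these genes carry an E-box-type element in their promoters that is read by the transcription factors Tfeb, Tfe3 and Mitf.

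Values below are levels on a log2 scale: the processed signal of a spot divided by the 75th percentile of its array, so that 0 is a signal equal to that percentile. A difference is KO minus WT in these log2 units, with its standard error (SE), and passed the test where limma's adjusted p (Benjamini-Hochberg over all features) was under 0.05. That percentile spanned 507.5 to 1037 in KO samples at 16 months and 1010 to 1752 in the other samples. The share of probes well above background was 54.2 to 62.7% in KO samples at 16 months and 64.6 to 76.5% in the other samples. All 34 genes were well above background on all 15 arrays, and 0 spots were saturated. Grn itself fell by 9.03 in KO at 4 months (limma adjusted p = 3.6e-07) and fell by 9.83 at 16 months (limma adjusted p = 5.44e-07), where all 4 KO samples were at the floor of -4.79, so that the size of this difference is a lower bound. The WT and KO arrays lay in different positions on the slides and each age lay on its own slide, so genotype and position, and age and slide, cannot be told apart.

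At 16 months, 7 of the 34 genes rose in KO and 7 fell. The genes that rose were Glb1, Fuca1, Hgsnat, Npc2, Gm2a, Tpp1 and Laptm4a, and the genes that fell were Gla, Man2b1, Arsa, Pla2g15, Laptm5, Mcoln1 and Ctns. Of all features tested, 19% were called higher and 14.7% lower (33.7% in either direction), against 20.6% of these genes in each direction. These gaps were not tested, and they depend on the scaling. After quantile normalization 3 genes were higher (8.82%, against 20% of all features) and 13 lower (38.2%, against 16.6%). With the percentile taken over probes detected on all arrays, 6 were higher (17.6%, against 14.8%) and 11 lower (32.4%, against 18.7%). All 34 genes were above background on all 15 arrays. With only such features fitted, 7 genes were higher (20.6%, against 28.8% of such features) and 8 lower (23.5%, against 15.8%). The median difference of the 34 genes was 0.37, against 0.11 over all features and 0.48 over those above background on all arrays. The differences ran from -5.38 to 1.91. The sign of that median depends on these choices: it was -0.21 after quantile normalization, 0.06 with the percentile over detected probes, -0.18 without WT arrays 1 and 2 and 0.70 without WT arrays 3 and 4. With blocks made from the replicate numbers of the labels, Hgsnat, Laptm4a, Ctns and Mcoln1 no longer passed, although the numbers are not known to pair the samples. At 16 months 1 block held KO samples 1 and 2 with WT arrays 1 and 2. The other held KO samples 3 and 4 with WT arrays 3 and 4. In such bulk samples, fewer cells of a type and less RNA per cell cannot be told apart.

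Markers of cell types also differed between the groups. Of 8 microglia markers, 7 fell in KO at 16 months (median -3.44, range -4.32 to -1.71), and their summed level, in multiples of the 75th percentile, was 777 to 1320 in WT and 78.5 to 276 in KO. At 4 months that sum was 1170 to 1480 in WT and 1130 to 1800 in KO. Of 12 choroid plexus markers, 6 rose at 16 months, with sums of 475 to 895 in WT and 1340 to 2570 in KO. At 4 months the choroid plexus sums were 14.5 to 155 in WT and 251 to 376 in KO, where 0 of the 12 passed limma's test and all 12 had an unadjusted p under 0.05, with a median difference of 3.05. Each marker of both lists was above background on at least 1 array of every group. Of 8 oligodendrocyte markers 4 fell and 1 rose at 16 months (sums of 190 to 202 in WT and 30.5 to 141 in KO). Such sums follow their brightest markers, here Ermn, at 7.56 and 7.40 in WT and 7.03, 4.98, 4.11 and 5.69 in KO. In the same 16-month samples Mbp overlapped between the genotypes and Mog lay wholly above WT in KO. Of 8 astrocyte markers 3 rose and 1 fell at that age (31.3 to 41.9 in WT and 47.2 to 105 in KO), and at 4 months 0 passed limma's test and 2 had an unadjusted p under 0.05 (28.8 to 38.6 and 39.7 to 44.3). Neutrophil marker sums were 80.4 to 355 in WT and 0.608 to 230 in KO at 16 months, and 33.8 to 119 in WT and 201 to 251 in KO at 4 months, without overlap. Border macrophage sums were 45.8 to 88.3 in WT and 23.3 to 85.1 in KO at 16 months, and 2.51 to 3.62 in WT and 5.34 to 9.02 in KO at 4 months, again without overlap. B cell marker sums were 1.47 to 2.04 in WT and 0.172 to 0.488 in KO at 16 months. At 4 months they were 9.1 to 10.4 and 4.89 to 8.51. Of 3 B cell markers tested 1 (Cd79b) fell and 0 rose at 16 months, and 0 passed at 4 months. Cd79a and Ms4a1 lay near the floor, between -4.79 and -3.36, in all samples of 16 months. T and NK cell sums were 0.353 to 0.546 and 0.59 to 1.79 at 16 months. At that age the endothelium (24.7 to 25.7 and 23.8 to 112), monocyte (12.7 to 48.8 and 4.52 to 71.6) and neuron sums (8.1 to 11.3 and 7.55 to 15.1) overlapped. Monocyte sums at 4 months were 4.19 to 13.3 in WT and 15.7 to 37.8 in KO, without overlap, and 0 of 5 monocyte markers passed limma's test. Endothelium, neuron, oligodendrocyte and T and NK cell sums overlapped at 4 months. Of the 34 lysosomal genes, 1 (Laptm5) fell at 16 months by more than the median microglia marker. By more than the marker that fell least, 3 fell (Laptm5, Arsa and Ctns). The part of these shifts in the results for lysosomal genes was not tested.

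**Figure D1:**
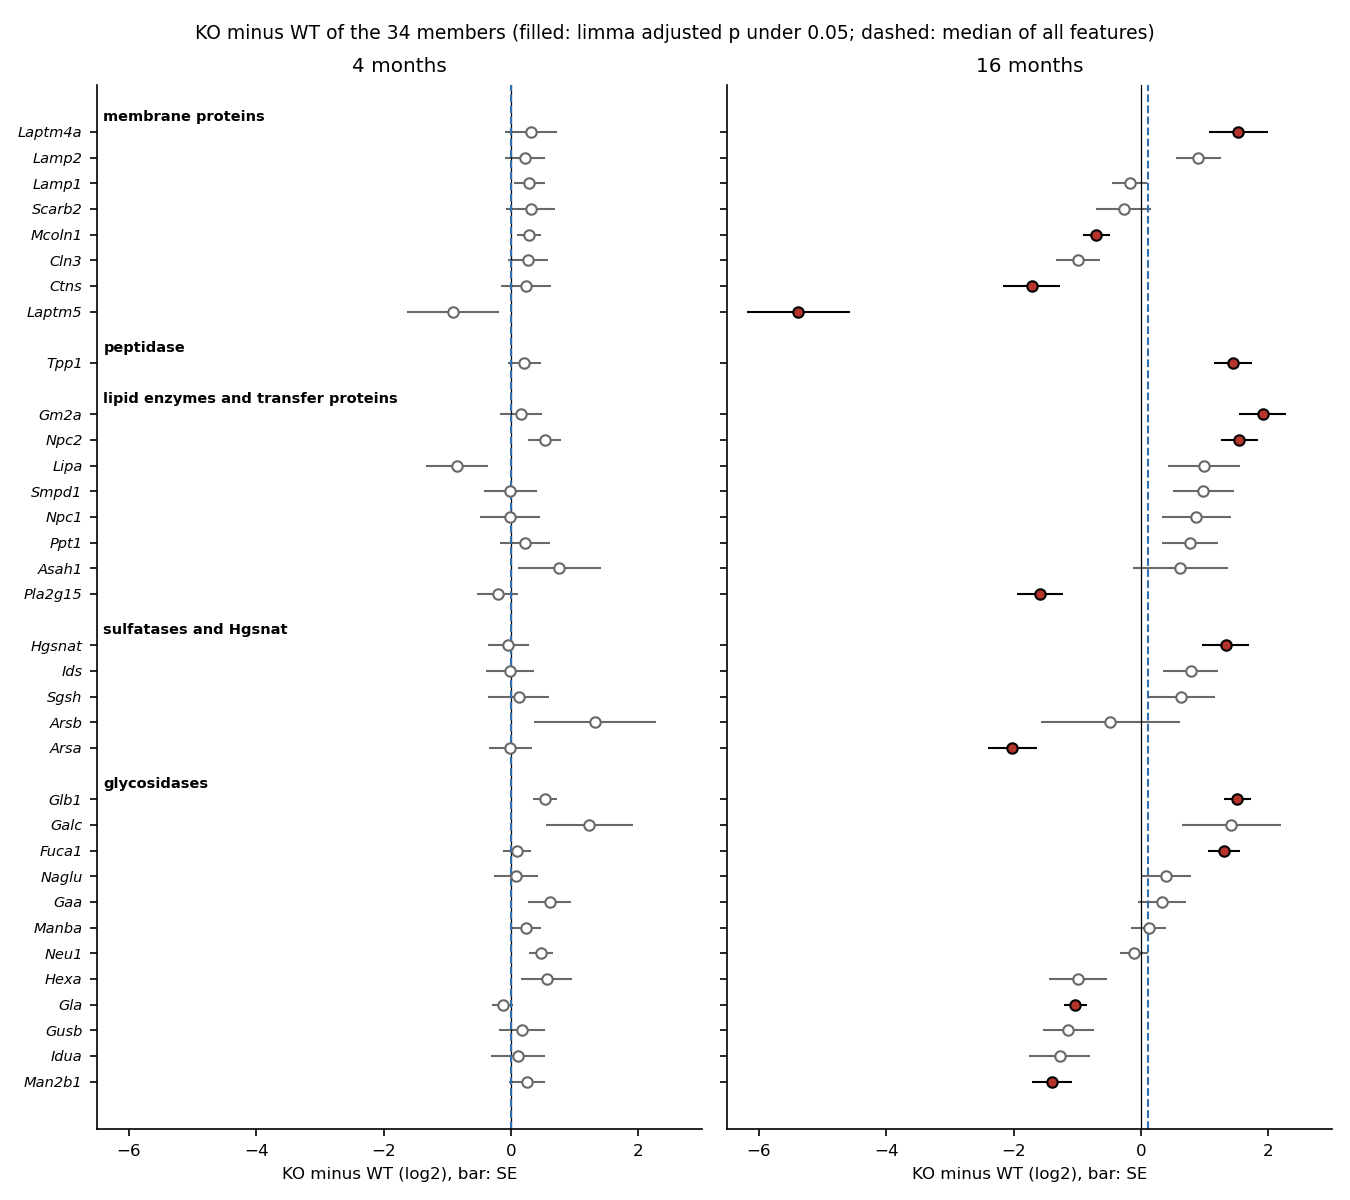
KO minus WT difference (log2, x axis; bar: SE) of the 34 genes at 4 months (left) and 16 months (right), grouped by class and ordered by the 16-month difference. Filled points passed limma's test (7 higher and 7 lower at 16 months, 0 at 4 months), and the dashed line is the median of all features (0.00 and 0.11).

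Among the 12 glycosidases, which remove single sugars from glycan chains, Glb1 and Fuca1 rose and Gla and Man2b1 fell, with a class median of 0.00. That is 16.7% in each direction, against 19% of all features higher and 14.7% lower. After quantile normalization 1 was higher and 6 lower with a median of -0.40, and with the percentile over detected probes 2 were higher and 5 lower with a median of -0.30. Of all features 20% were higher and 16.6% lower after quantile normalization, and 14.8% and 18.7% with the percentile over detected probes. The class median was -0.41 without WT arrays 1 and 2 and 0.19 without WT arrays 3 and 4. Glb1, the beta-galactosidase that acts on ganglioside and keratan sulfate, stood at 2.24 and 3.00 in the WT samples at 16 months and at 4.24, 4.11, 3.92 and 4.24 in KO. At 4 months its levels were 1.94, 2.07, 1.90 and 2.06 in WT and 2.71, 2.61 and 2.27 in KO. KO lay above WT without overlap at both ages. The difference at 16 months was 1.51 (SE 0.21, limma adjusted p = 0.000702), a 2.85-fold higher level, and at 4 months 0.53 (SE 0.19, limma adjusted p = 0.68). Fuca1, which removes alpha-linked fucose, measured 4.41 and 4.58 in WT and 5.86, 6.24, 5.89 and 5.27 in KO at 16 months. At 4 months the groups overlapped, at 4.36, 4.83, 4.58 and 4.57 in WT and 4.76, 4.40 and 4.89 in KO. Fuca1 lay higher in every KO sample than in both WT samples at 16 months, and it rose by 1.31 (SE 0.25, limma adjusted p = 0.00337). That call rests on 1 of its 2 probes: the other, above background on 9 arrays, differed by -0.25. With the mean of both probes the difference was 0.53 (limma adjusted p = 0.372), and after quantile normalization 0.56 (limma adjusted p = 0.0923).

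Gla, the alpha-galactosidase that cleaves globotriaosylceramide, measured 6.16 and 6.32 in WT and 5.51, 5.28, 4.95 and 5.13 in KO at 16 months. At 4 months the levels were 6.98, 6.92, 6.65 and 6.71 in WT and 6.57, 6.78 and 6.71 in KO. The 16-month groups were apart, with every KO sample below both WT samples, whereas the 4-month groups overlapped. Gla fell by 1.03 at 16 months (SE 0.18, limma adjusted p = 0.00192), and by 1.62 after quantile normalization. Man2b1, the alpha-mannosidase of N-glycan breakdown, stood at 5.05 and 6.49 in WT and at 4.31, 4.17, 4.58 and 4.41 in KO at 16 months. At 4 months it was 6.13, 6.42, 5.97 and 6.21 in WT and 6.43, 6.55 and 6.31 in KO. All KO samples at 16 months were below both WT samples, which themselves were 1.44 apart. Man2b1 fell by 1.40 (SE 0.32, limma adjusted p = 0.00759). Without WT arrays 3 and 4 the difference was -0.69 (limma adjusted p = 0.0418), and without WT arrays 1 and 2 it was -2.12.

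The other 8 glycosidases did not pass at 16 months, with differences of -1.28 to 1.42 and limma adjusted p of 0.0513 to 0.788. Gusb, the beta-glucuronidase, differed by -1.14 (SE 0.40, limma adjusted p = 0.0513) and Idua, the alpha-iduronidase, by -1.28 (SE 0.48, limma adjusted p = 0.0648). Hexa, the alpha subunit of beta-hexosaminidase, differed by -0.99 (SE 0.45, limma adjusted p = 0.113). Its WT samples were 5.14 and 6.93, so that the KO samples (4.22, 5.28, 5.33 and 5.33) lay around the lower of them. Galc, which acts on galactosylceramide, differed by 1.42 with the largest error of the class (SE 0.78, limma adjusted p = 0.186). Gaa, Manba, Naglu and Neu1, which act on glycogen, mannose, glucosamine and sialic acid residues, were between -0.11 and 0.40. A second probe of Idua differed by 0.10 where the brighter one differed by -1.28, and a second probe of Gaa by 1.55 against 0.33.

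In the class of sulfatases and Hgsnat, which act on sulfated glycosaminoglycans and sulfatide, 1 of 5 rose and 1 fell. That is 20% in each direction, against 19% of all features higher and 14.7% lower. Arsa, the arylsulfatase that desulfates the myelin lipid sulfatide, was 2.40 and 3.24 in WT and 0.83, 1.51, 0.84 and 0.02 in KO at 16 months. In the younger samples it measured 3.92, 4.48, 3.95 and 4.42 in WT and 4.16, 4.51 and 3.88 in KO. The KO samples at 16 months were all below WT, and the 4-month groups covered the same range. Arsa fell by 2.02 (SE 0.39, limma adjusted p = 0.00333), a 4.06-fold lower level. Hgsnat, the membrane enzyme that acetylates heparan sulfate ends, was 2.15 and 2.99 in WT and 3.73, 4.76, 3.82 and 3.27 in KO at 16 months. Its levels at 4 months were 3.26, 3.26, 3.63 and 3.44 in WT and 3.33, 3.55 and 3.19 in KO. The 16-month KO samples thus lay above the older WT samples, and 3 of the 4 above all 4-month samples. Hgsnat rose by 1.33 (SE 0.37, limma adjusted p = 0.0185). Without WT arrays 1 and 2 it differed by 0.90 (limma adjusted p = 0.176).

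Ids, Sgsh and Arsb, the sulfatases of dermatan, heparan and chondroitin sulfate chains, did not pass, at -0.48 to 0.78 (limma adjusted p = 0.187 to 0.795). Sgsh had 2 probes that differed in sign, at 0.63 for the brighter and -1.91 for the other. The class median was 0.63 and 0.33 with the percentile over detected probes, but -0.07 after quantile normalization and -0.49 with the mean of all probes of a gene, so that its sign depends on the scaling and on the choice of probes. It was 0.27 without WT arrays 1 and 2 and 1.00 without WT arrays 3 and 4.

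Lipid enzymes and transfer proteins had the highest class median at 16 months among the classes with several genes (0.92). Of the 8 differences, 7 were above 0, and 2 genes passed as higher and 1 as lower. That is 25% and 12.5%, against 19% of all features higher and 14.7% lower. The median of all features was 0.11, or 0.48 over those above background on all 15 arrays. The class median was 0.74 after quantile normalization and 0.62 with the percentile over detected probes. It was 0.35 without WT arrays 1 and 2 and 1.56 without WT arrays 3 and 4. Npc2, the soluble carrier that hands cholesterol to the membrane, rose and Gm2a, the activator that presents ganglioside to beta-hexosaminidase, rose, whereas Pla2g15, the lysosomal phospholipase, fell. Npc2 stood at 5.60 and 6.75 in WT and 7.91, 7.70, 7.54 and 7.73 in KO at 16 months. The younger samples measured 6.52, 6.22, 6.48 and 6.29 in WT and 6.56, 7.23 and 6.93 in KO. KO was above WT without overlap at either age. Npc2 rose by 1.54 at 16 months (SE 0.29, limma adjusted p = 0.00304) and differed by 0.53 at 4 months (SE 0.26, limma adjusted p = 0.872). After quantile normalization the 16-month difference was 0.82 (limma adjusted p = 0.116), and without WT arrays 1 and 2 it was 0.97 (limma adjusted p = 0.0229).

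Gm2a measured 0.10 and 1.49 in WT and 3.33, 2.43, 2.51 and 2.56 in KO at 16 months. In 4-month WT it was 0.69, 0.35, 0.60 and 0.39, and in 4-month KO 1.03, 0.48 and 0.48. All 4 older KO samples were above every other sample. Gm2a rose by 1.91 (SE 0.37, limma adjusted p = 0.00361), the largest rise among these genes and a 3.76-fold higher level. Without WT arrays 1 and 2 the difference was 1.21 (limma adjusted p = 0.0342). Pla2g15 was 3.69 and 4.98 in WT and 2.49, 2.24, 2.83 and 3.44 in KO at 16 months. Its 4-month levels were 5.46, 5.32, 5.32 and 5.24 in WT and 5.07, 5.15 and 5.17 in KO. KO was below WT without overlap at both ages. Pla2g15 fell by 1.59 at 16 months (SE 0.36, limma adjusted p = 0.00764) and differed by -0.21 at 4 months (SE 0.32, limma adjusted p = 1). Without WT arrays 3 and 4 the 16-month difference was -0.95 (limma adjusted p = 0.0824).

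The remaining 5 lipid genes differed by 0.62 to 0.99 at 16 months and did not pass (limma adjusted p = 0.143 to 0.571). They are Lipa, the acid lipase of cholesteryl esters, Smpd1, the acid sphingomyelinase, Npc1, the membrane partner of Npc2, Ppt1, a thioesterase of fatty-acylated proteins, and Asah1, the acid ceramidase. Lipa differed by 0.99 at 16 months (SE 0.56) and by -0.85 at 4 months (SE 0.49).

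Tpp1, the tripeptidyl peptidase of the lysosome, stood at 3.93 and 4.48 in WT and at 6.27, 5.13, 5.70 and 5.51 in KO at 16 months. At 4 months it was 4.26, 4.74, 4.63 and 4.17 in WT and 4.63, 4.59 and 4.73 in KO. The older KO samples were above all others, and the younger KO samples within the range of the younger WT samples. Tpp1 rose by 1.45 (SE 0.30, limma adjusted p = 0.00459). The difference was 0.79 after quantile normalization (limma adjusted p = 0.103).

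Membrane proteins had a class median of -0.48 at 16 months, and 1 of 8 rose while 3 fell. Those shares were 12.5% and 37.5%, against 19% and 14.7% of all features. The class median was -0.92 after quantile normalization and -0.79 with the percentile over detected probes. It was -1.10 without WT arrays 1 and 2 and -0.18 without WT arrays 3 and 4. Laptm5, a membrane protein of late endosomes and lysosomes found in haematopoietic cells, measured 5.25 and 6.18 in WT and -0.99, -0.75, 1.38 and 1.72 in KO at 16 months. At 4 months it was 6.88, 6.32, 6.28 and 6.54 in WT and 6.25, 4.35 and 6.17 in KO. The 4 KO samples at 16 months were far below all the other samples, and the 3 KO samples at 4 months lay just or clearly below the WT samples. Laptm5 fell by 5.38 at 16 months (SE 0.81, limma adjusted p = 0.000944), a 41.6-fold lower level, and its second probe gave -5.08. The 4-month difference was -0.91 (SE 0.72, limma adjusted p = 1). In the same order of KO samples at 16 months, the summed microglia markers were 78.5, 118, 183 and 276. At that age the KO samples with the lower marker sums also had the lower Laptm5 levels. At 4 months this order did not hold. KO sample 2 had the highest marker sum (1800, against 1130 and 1300) and the lowest Laptm5 level (4.35, against 6.25 and 6.17). The part of the marker change in the fall of Laptm5 was not tested.

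**Figure D2:**
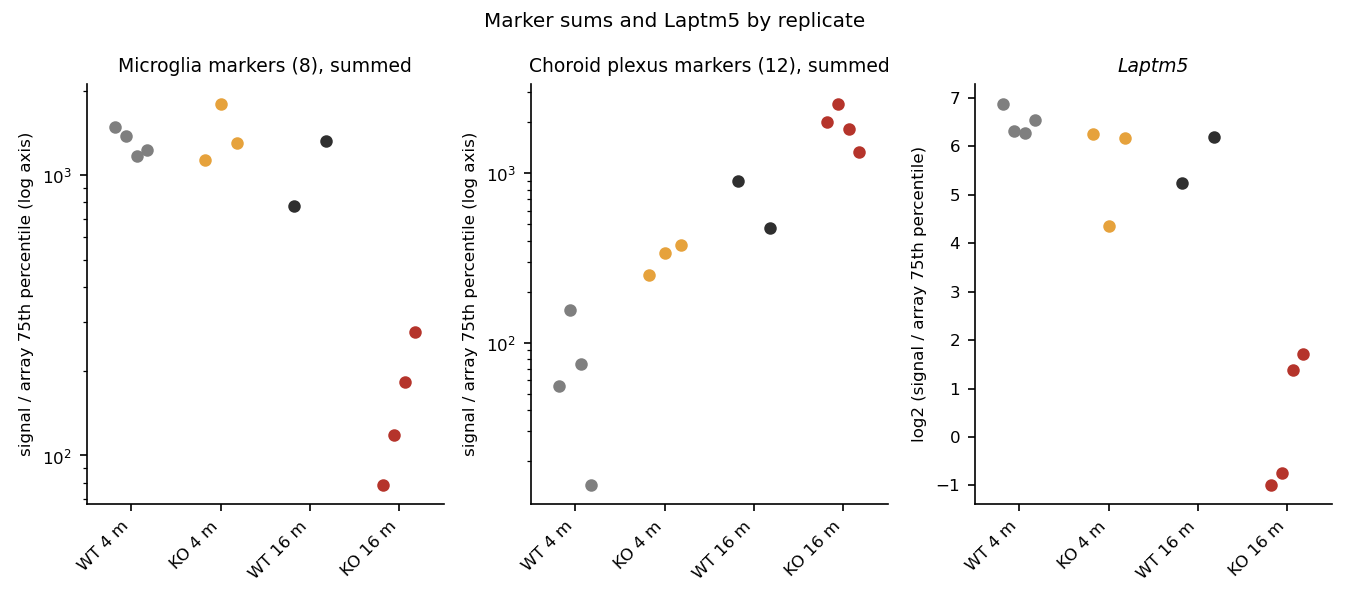
Summed level of 8 microglia markers (left) and 12 choroid plexus markers (middle), as multiples of the array's 75th percentile on log axes, and log2 level of Laptm5 (right), each point 1 replicate. The 4 KO replicates at 16 months are at 78.5 to 276 for microglia markers, at 1340 to 2570 for choroid plexus markers and at -0.99 to 1.72 for Laptm5.

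Ctns, the exporter of cystine, stood at 2.36 and 2.87 in WT and -0.10, 1.91, 1.07 and 0.73 in KO at 16 months. At 4 months it measured 3.80, 3.71, 3.48 and 3.30 in WT and 3.73, 4.10 and 3.62 in KO. KO lay below WT at 16 months, with the KO samples spread more widely (SD 0.83) than the WT samples (SD 0.36). Ctns fell by 1.72 (SE 0.44, limma adjusted p = 0.0131), and differed by -1.46 without WT arrays 3 and 4 (limma adjusted p = 0.0961). Mcoln1, the calcium channel of the lysosomal membrane, was 3.07 and 3.66 in WT and 2.60, 3.04, 2.49 and 2.53 in KO at 16 months. At 4 months it was 3.84, 4.14, 3.79 and 4.09 in WT and 4.21, 4.30 and 4.21 in KO. KO was below WT at 16 months and above it at 4 months, without overlap at either age. Mcoln1 fell by 0.70 at 16 months (SE 0.21, limma adjusted p = 0.0282) and differed by 0.28 at 4 months (SE 0.19, limma adjusted p = 0.999). Without WT arrays 3 and 4 the 16-month difference was -0.40 (limma adjusted p = 0.247). It was -0.68 without KO sample 1 (limma adjusted p = 0.0534) and -0.64 without KO sample 3 (limma adjusted p = 0.0604).

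Laptm4a, a relative of Laptm5 found in many cell types, was 4.30 and 5.18 in WT and 7.11, 5.08, 6.32 and 6.55 in KO at 16 months. Its 4-month levels were 4.76, 4.59, 4.90 and 4.80 in WT and 4.88, 5.42 and 4.94 in KO. KO sample 2 lay between the WT samples, so the groups overlapped at 16 months. Laptm4a rose by 1.53 (SE 0.46, limma adjusted p = 0.0275). The difference was 0.87 after quantile normalization (limma adjusted p = 0.222) and 1.23 with the percentile over detected probes (limma adjusted p = 0.072). It was 1.09 without WT arrays 1 and 2 (limma adjusted p = 0.216), 1.25 without KO sample 1 (limma adjusted p = 0.0505) and 1.51 without KO sample 3 (limma adjusted p = 0.0514).

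Lamp1 and Lamp2, the abundant glycoproteins that line the lysosome, differed by -0.18 (SE 0.27, limma adjusted p = 0.655) and 0.90 (SE 0.35, limma adjusted p = 0.0741). A second Lamp2 probe, designed to another transcript, differed by 2.28 in a fit of all probes (limma adjusted p = 0.00184). Cln3, a membrane protein whose loss causes juvenile neuronal ceroid lipofuscinosis, differed by -0.99 (SE 0.35, limma adjusted p = 0.0527). Its other 2 probes differed by -2.88 (limma adjusted p = 0.0411) and -0.73 (limma adjusted p = 0.554) in that fit. Scarb2, the receptor that carries glucocerebrosidase to lysosomes, differed by -0.27 (SE 0.43, limma adjusted p = 0.689).

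**Figure D3:**
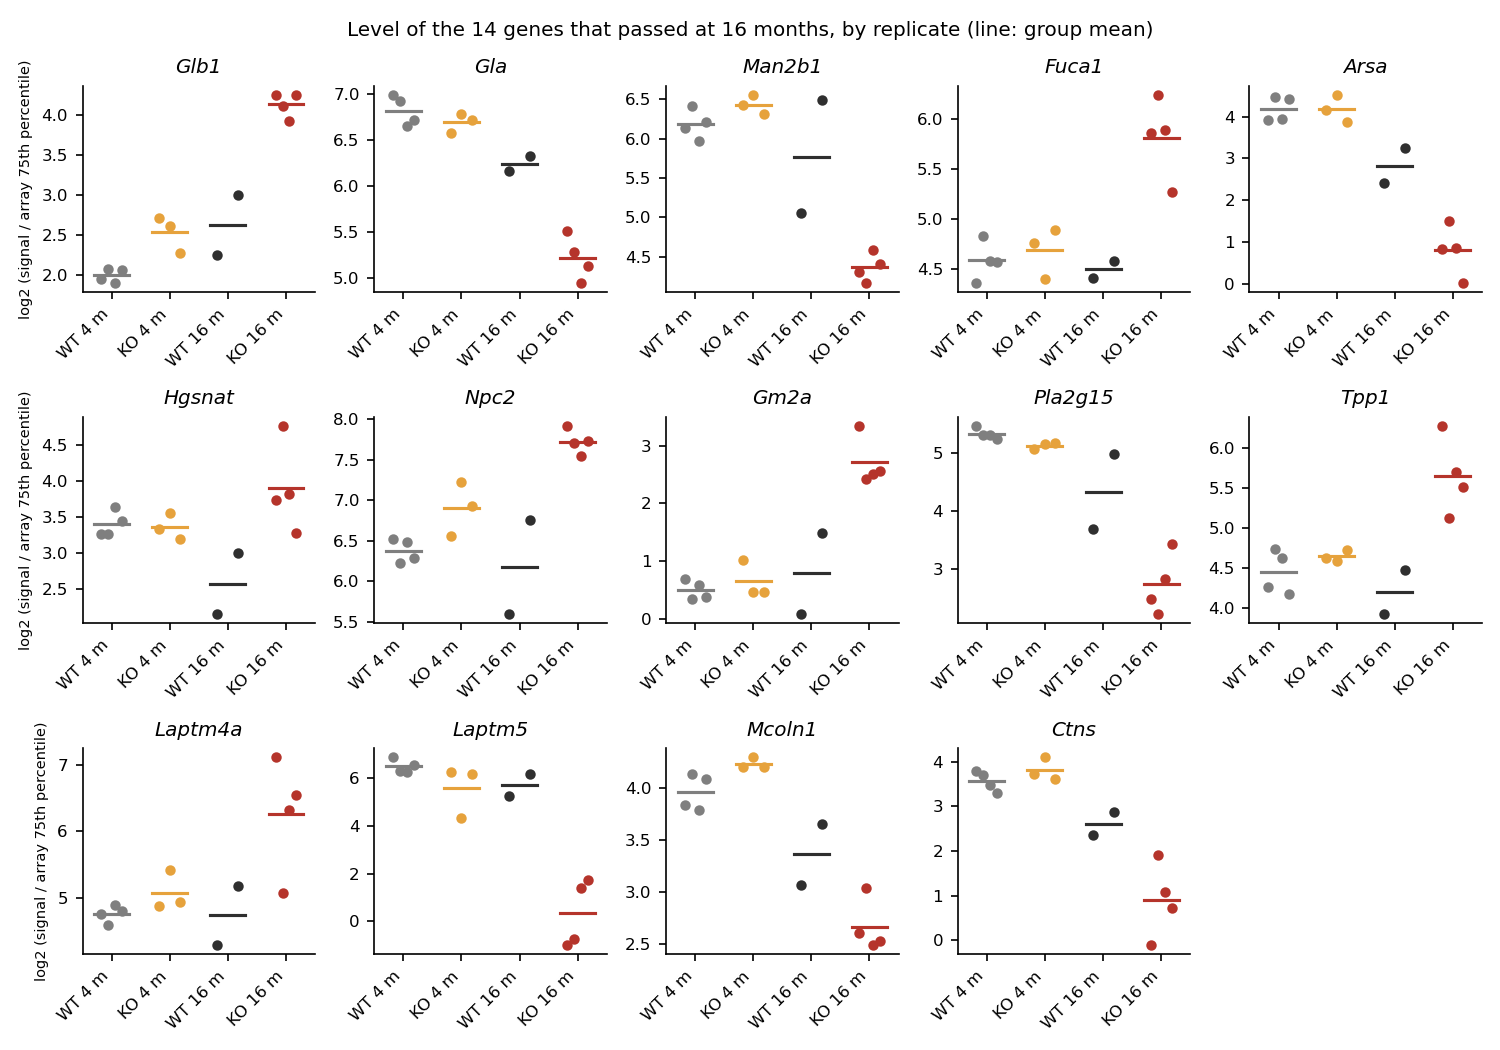
Log2 level (signal over the array's 75th percentile) of the 14 genes that passed at 16 months, each point 1 replicate and each line a group mean, for WT and KO at 4 and 16 months. Levels of KO at 16 months lie apart from those of WT at 16 months in every panel but Laptm4a, and the y axes differ between panels.

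Counted by overlap, KO lay wholly above WT at 16 months in 8 of the 34 genes (23.5%) and wholly below in 8 (23.5%), where 23.8% and 17.7% of all features did so. Beside the called genes these were Lipa and Lamp2 above and Cln3 below. The 2 WT samples differed from each other over much of the list: the sample of arrays 3 and 4 was the higher in 31 of 34 genes, by a median of 0.90 and by more than 1 in 16 genes. The median SD of the 34 genes was 0.64 in WT and 0.52 in KO at 16 months, and 0.19 and 0.25 at 4 months. The sample of WT arrays 3 and 4 also had the higher microglia marker sum (1320 against 777) and the lower choroid plexus sum (475 against 895). The part of this in the levels of lysosomal genes was not tested. In a model restricted to 16 months, which estimates the spread from these samples only, 1 gene was higher (Glb1) and 2 were lower (Gla and Laptm5). Those shares were 2.94% and 5.88%, against 5.31% and 5.11% of all features.

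At 4 months 0 of the 34 genes passed limma's test in either direction, and 2 had an unadjusted p under 0.05 (Glb1 and Neu1), that is 5.88% against 5.97% of all features. Of all features 0.0313% were called at this age (10 features), 0.0188% higher and 0.0125% lower. The differences ran from -0.91 to 1.32, and 25 of 34 were positive. Their median was 0.22, against 0.00 over all features and 0.07 over those above background on all 15 arrays. Class medians were 0.25 for glycosidases, -0.01 for sulfatases and Hgsnat, 0.08 for lipid genes and 0.27 for membrane proteins. KO lay wholly above WT in 8 genes (23.5%, against 4.94% of all features, with no test of the gap): Hexa, Glb1, Gaa, Galc, Neu1, Npc2, Asah1 and Mcoln1. KO lay wholly below in 2 (5.88%, against 6.46%): Pla2g15 and Laptm5. KO sample 2 was the highest of the 3 KO samples in 22 of 34 genes, and it also had the highest microglia marker sum (1800, against 1130 and 1300). The lowest adjusted p was that of Glb1 (0.68), so that differences of this size were not separated from the spread between samples of both ages. A model restricted to 4 months estimates the spread from these samples only. There 9 of the 34 genes had an unadjusted p under 0.05 by limma's test, and 4129 of all 31921 features did. By adjusted p, 0 of the 34 genes passed in that model.

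Whether a KO difference changed with age was tested by the interaction, the difference at 16 months minus that at 4 months. It was more positive at 16 months for 3 genes and more negative for 5 (8.82% and 14.7%, against 6.92% and 6.39% of all features, 13.3% in either direction). More positive were Glb1 (0.98, SE 0.29, limma adjusted p = 0.0487), Fuca1 (1.22, SE 0.34, limma adjusted p = 0.0403) and Gm2a (1.75, SE 0.50, limma adjusted p = 0.0439). More negative were Laptm5 (-4.47, SE 1.08, limma adjusted p = 0.0242), Arsa (-2.01, SE 0.52, limma adjusted p = 0.0307) and Man2b1 (-1.65, SE 0.43, limma adjusted p = 0.0309). Gla (-0.90, SE 0.24, limma adjusted p = 0.0334) and Mcoln1 (-0.97, SE 0.28, limma adjusted p = 0.0474) were also more negative. These calls lay close to the threshold: 0 of the 8 passed in all 21 alternatives, from 4 for Glb1 to 18 for Laptm5. With a single replicate left out, the count ran from 0 to 5 for the more positive genes, with 0 in 10 of the 13 cases, and from 0 to 9 for the more negative genes, with 0 without KO sample 1 at 4 months and 9 without WT arrays 1 and 2. With the blocks made from replicate numbers, 0 were more positive and 1 (Laptm5) more negative, so that 7 of the 8 calls were lost. The median of the 34 genes was -0.13 and that of all features 0.16, and without WT arrays 3 and 4 it was 0.46 for the 34 genes. With only features above background on all arrays fitted, 2.94% of these genes were more positive, against 10.1% of such features. The more negative were 11.8%, against 8.28%.

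Between 4 and 16 months, 0 of the 34 genes changed in WT by limma's test (9 with an unadjusted p under 0.05, or 26.5% against 17.7% of all features), where 3.56% of all features were called, 1.77% higher and 1.78% lower. In KO, 7 were higher and 13 lower at 16 than at 4 months (20.6% and 38.2%, against 19.3% and 21.1% of all features, 40.4% in either direction). The 13 were Hexa, Gla, Gusb, Idua, Man2b1, Neu1, Arsa, Pla2g15, Scarb2, Laptm5, Mcoln1, Cln3 and Ctns, and the 7 were Glb1, Fuca1, Ids, Npc2, Gm2a, Tpp1 and Laptm4a. Marker levels moved between the ages as well. In KO, 8 of 8 microglia markers were lower at 16 months (median -3.92), and 11 of 12 choroid plexus markers (median 4.13) and 5 of 7 border macrophage markers (median 3.43) were higher. In WT, 11 of 12 choroid plexus markers (median 5.15) and 5 of 7 border macrophage markers (median 4.96) were higher, and 0 of 8 microglia markers passed limma's test, with 0 at an unadjusted p under 0.05 (median -0.41). The part of the markers in the age differences of lysosomal genes was not tested. Age cannot be told apart from slide in these values. They also hold a factor that the deposited signals carried at 4 months only, which was not removed.

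Among 34 other lysosomal genes from 4 lists, 9 were higher in KO at 16 months and 5 lower (26.5% and 14.7%). Of all features 19% were higher and 14.7% lower, with a median of 0.11, against 0.18 for these genes. At 4 months 0 of these genes passed limma's test, and 3 had an unadjusted p under 0.05, where 5.97% of all features did. The 3 with the smallest adjusted p were Tpcn1, Dnase2a and Laptm4b. Tpcn1, a two-pore cation channel of endolysosomes, was 3.17 and 4.31 in WT and 0.25, -0.01, 0.73 and 0.38 in KO, and fell by 3.40 (SE 0.30, limma adjusted p = 7.8e-05). Dnase2a, the acid DNase, was 5.60 and 4.86 in WT and 2.52, 2.33, 1.36 and 1.99 in KO, and fell by 3.18 (SE 0.31, limma adjusted p = 0.000135). Laptm4b, a relative of Laptm4a, was 3.00 and 2.32 in WT and 6.47, 5.36, 5.41 and 5.35 in KO, and rose by 2.99 (SE 0.38, limma adjusted p = 0.000404). Every KO sample lay outside the WT range for each of these genes. Among 3 transcription factors of lysosomal genes, Tfe3 fell by 2.76 (SE 0.35, limma adjusted p = 0.000424), Mitf rose by 0.86 (SE 0.24, limma adjusted p = 0.0199) and Tfeb did not pass. Of 5 genes of enzyme delivery by mannose phosphate, M6pr rose by 2.05 (SE 0.30, limma adjusted p = 0.00082) and Igf2r by 1.86 (SE 0.64, limma adjusted p = 0.0454), both receptors that sort hydrolases to lysosomes. These names were singled out after their values were seen.

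**Figure D4:**
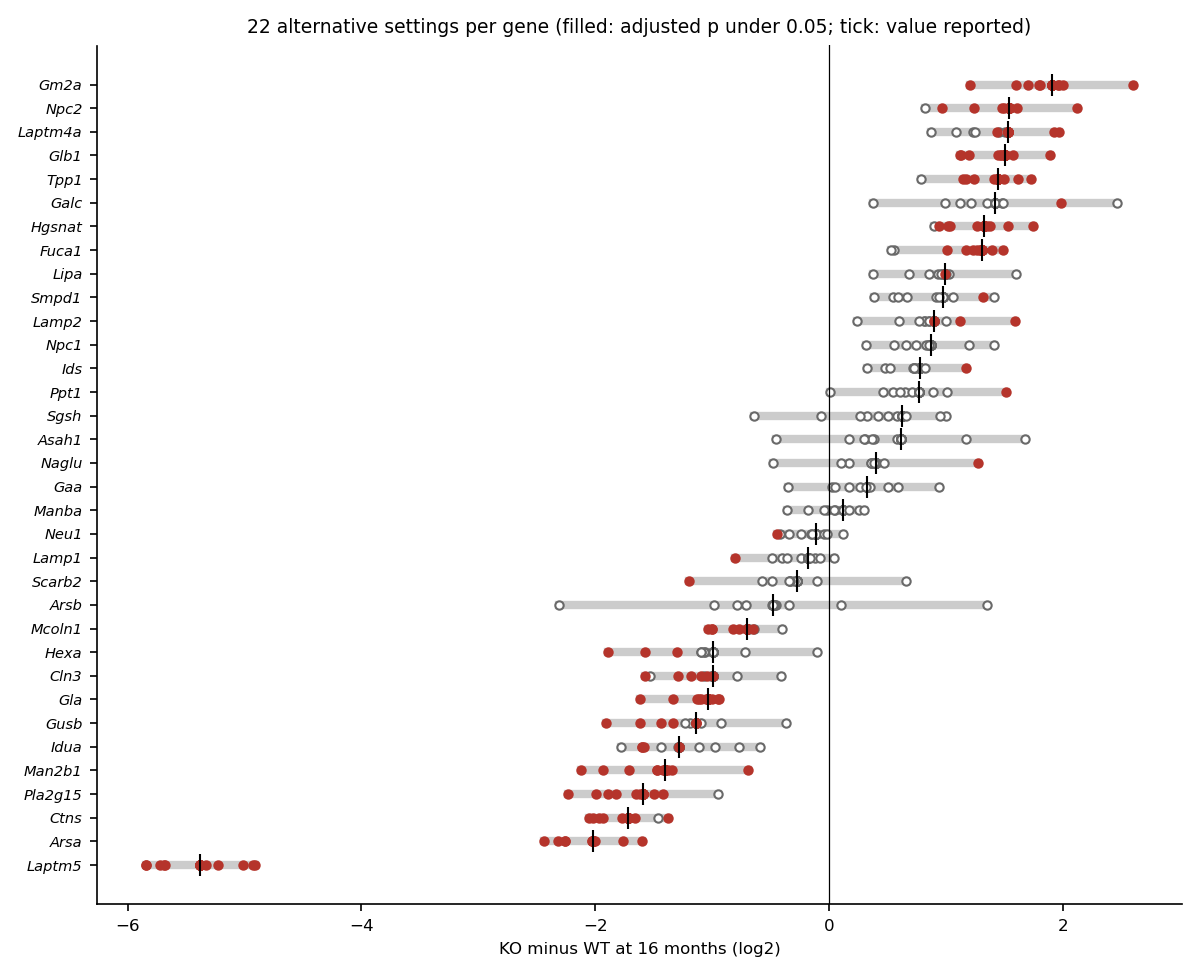
KO minus WT difference at 16 months (log2, x axis) of the 34 genes under 22 alternative settings, each point 1 setting, filled where limma's adjusted p was under 0.05 and drawn on top where points coincide, with a tick at the value reported. Gla, Glb1 and Laptm5 are filled throughout, and the 14 genes that passed keep their sign in all 22.

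The promoters of these genes were searched for the letters CACGTG, the core of the E-box element, and for the longer TCACGTGA, both of which read the same on either strand and of which the second contains the first. RefSeq promoters on GRCm38.p6, from 250 bases before to 50 after a gene start, were matched for 32 of the 35 genes and not for Npc1, Asah1 and Hgsnat. CACGTG was present for 9 of the 32 (28.1%), against 8.09% of 27025 genes, and TCACGTGA for 3 (9.38%), against 1.12%. The 9 are Glb1, Gaa, Gla, Naglu, Arsa, Sgsh, Lamp1, Mcoln1 and Cln3, that is 4 of 12 glycosidases, 2 of 4 in the sulfatase class, 3 of 9 membrane proteins and 0 of 6 lipid genes. By the result at 16 months, they include 1 of 6 genes that rose, 3 of 7 that fell and 5 of 18 that did not pass, Cd68 being untested. Lamp1 held the letters 4 times, between 61 and 15 bases before its start. A match is a description of the sequence and says nothing of a factor's binding here.

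The 250 bases before the start are printed 5′ to 3′ on the gene's strand, with the matches in capitals, for the 3 genes with the longer element and for Glb1, the gene with the smallest adjusted p among those that rose. Gla lies at chrX:134601006-134601255 on the minus strand, Mcoln1 at chr8:3500269-3500518 on the plus strand, Cln3 at chr7:126583237-126583486 on the minus strand and Glb1 at chr9:114400828-114401077 on the plus strand.
Gla: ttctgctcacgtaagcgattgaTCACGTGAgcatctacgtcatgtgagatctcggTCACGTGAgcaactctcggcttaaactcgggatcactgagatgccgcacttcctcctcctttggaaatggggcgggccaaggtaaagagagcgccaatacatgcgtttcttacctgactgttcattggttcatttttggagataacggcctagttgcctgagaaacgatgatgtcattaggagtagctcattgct
Mcoln1: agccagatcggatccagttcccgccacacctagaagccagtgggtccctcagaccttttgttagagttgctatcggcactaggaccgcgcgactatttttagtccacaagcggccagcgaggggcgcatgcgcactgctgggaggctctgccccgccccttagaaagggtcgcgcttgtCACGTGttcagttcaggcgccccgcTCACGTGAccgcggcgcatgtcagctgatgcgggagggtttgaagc
Cln3: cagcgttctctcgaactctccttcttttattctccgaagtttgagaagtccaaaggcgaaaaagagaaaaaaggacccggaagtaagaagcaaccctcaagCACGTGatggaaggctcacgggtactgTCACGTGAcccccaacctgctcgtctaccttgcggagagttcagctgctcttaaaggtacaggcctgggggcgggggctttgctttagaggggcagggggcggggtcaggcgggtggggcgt
Glb1: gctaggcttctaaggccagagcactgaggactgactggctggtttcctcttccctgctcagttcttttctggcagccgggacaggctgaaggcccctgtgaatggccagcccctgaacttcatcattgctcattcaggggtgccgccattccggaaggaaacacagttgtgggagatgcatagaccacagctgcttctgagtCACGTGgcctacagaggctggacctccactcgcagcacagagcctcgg
Both matches of Gla are of the longer form, 227 and 194 bases before the start, whereas Mcoln1 and Cln3 have 1 of each form and Glb1 has 1 of the shorter form, 48 bases before the start. At 16 months Gla and Mcoln1 fell, Cln3 differed by -0.99 without passing, and Glb1 rose. Whether these letters go with a direction was not tested.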

How the data were processed

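Expression was measured on 15 single-color Agilent arrays of sorted microglia. Per the file headers, the deposited values are background-corrected spot intensity values from Feature Extraction 10.7.3.1 on design 028005, and the submitters' processing notes name R 2.15.3. Set against the background-subtracted column of the same files, they carried a further factor of 0.854 to 1.496 that varied between spots at 4 months, and none at 16 months. This factor was not removed, so it is part of the age differences given here, and no age difference is given without it. Spots of a probe were averaged without outlier spots, divided by the array's 75th percentile, floored at 0.0361 (-4.79 on the log2 scale) and put on the log2 scale from these deposited values. Probes well above background on at least 3 arrays were kept, and for each gene the one with the highest mean. Arrays whose log2 difference had a scaled median absolute deviation under 0.194, the highest of repeat spots, were averaged: WT arrays 1 and 2 (0.153) and 3 and 4 (0.117) at 16 months, against 0.464 to 1.275 in other pairs. One linear model with a mean per group was fitted to 13 replicates (9 residual degrees of freedom) with limma 3.58.1 (statmod 1.5.0, version 1.17.8 of data.table) in R 4.3.3, two-sided, with Benjamini-Hochberg adjustment over 31921 features. It was tested on simulated data with the same spread in all groups, which does not cover the wider spread of the 16-month samples. Symbols came from RefSeq accessions, for 26582 of 55681 probes.

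Replicate numbers in the labels do not say what they stand for. Deviations of same-numbered WT and KO arrays correlated at -0.046 to -0.037 at 4 months. At 16 months they correlated at 0.104 to 0.137, which rests on a single WT difference, so the numbers were not taken as pairs. Values in every replicate are given for genes that passed in any contrast, and for other lysosomal genes for the 3 smallest adjusted p. The genes, classes and marker lists were chosen with earlier results of these data known. The bead arrays of brain were not used here, because no table given pairs their probes with genes. Alternatives were other scalings, filters, probe rules, replicate rules and fits, and leaving out each replicate.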

Additional observations from a re-analysis of the deposited data

Results flagged for a closer look

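The KO difference changed between 4 and 16 months by limma's interaction test in 8 genes. It was more positive at 16 months for Glb1 (0.98), Fuca1 (1.22) and Gm2a (1.75), and more negative for Gla (-0.90), Man2b1 (-1.65), Arsa (-2.01), Laptm5 (-4.47) and Mcoln1 (-0.97). In 4 cases 1 sample lay apart from the other 3 of its group, by a gap that exceeded Dixon's critical share of the group's range for 4 samples. KO sample 1 at 16 months had a Hexa level of 4.22, with the others at 5.28 to 5.33, and a Gm2a level of 3.33, with the others at 2.43 to 2.56. KO sample 2 at 16 months had a Scarb2 level of 1.82, with the others at 2.44 to 2.55. WT sample 3 at 4 months had a Neu1 level of 3.33, with the others at 3.48 to 3.51. Chance gives about 1 such case in 20 groups, and 68 groups were examined.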

How the results depend on the processing

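Of 22 alternatives at 16 months, 13 left out 1 replicate each. Gla, Glb1 and Laptm5 passed in all 22, the 14 called genes kept their direction in all 22, and at 4 months 0 genes passed in any. The count of genes higher at 16 months (7) was 3 after quantile normalization (8.82%, against 20% of all features) and 1 in a fit of that age alone. The count of lower genes (7) was 13 after quantile normalization (38.2%, against 16.6%), 11 with the 75th percentile over probes detected on all arrays (32.4%, against 18.7%), 2 in the fit of that age alone, and 4 to 11 with 1 replicate left out (4 without WT arrays 3 and 4, 11 without WT arrays 1 and 2). The count of more positive interactions (3) was 0 after quantile normalization and with the percentile over detected probes, 1 with probes above background on all 15 arrays, 5 with every array as its own replicate, and 0 to 5 with 1 replicate left out. The count of more negative interactions (5) was 8 after quantile normalization and 0 to 9 with 1 replicate left out. Normexp on median spot signals, chosen after seeing the data because the files hold no mean signal, gave 1 more positive interaction. The cause of these shifts was not tested. The fit of 16 months alone called 5.31% of all features higher and 5.11% lower, against 19% and 14.7%. Of all calls at 16 months 56.4% were higher, against 44.1% with the percentile over detected probes and 64.6% with probes above background on all arrays, and the median of all features moved from 0.11 to 0.00 and 0.48.

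With the block made from the replicate numbers, 0 interactions were more positive and 1 more negative. It joined samples 1 and 2, and samples 3 and 4, at 16 months, and does not come from a known pairing. The block ended 4 calls at 16 months: Ctns (limma adjusted p = 0.0604), Hgsnat (0.0815), Laptm4a (0.0884) and Mcoln1 (0.0941). It added 1, Gusb (-1.14, limma adjusted p = 0.0201). A slide block could not be fitted, since each age lies on 1 slide, and the alternatives for brain were not run. With 2 WT samples at 16 months, their number limits the precision of every 16-month value, and where 1 of them is left out the lone sample is assumed to vary like the other groups.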
